A study of Rattus norvegicus with 3 samples.

Results

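The 6 genes described here encode enzymes and membrane-binding proteins of matrix vesicles: the phosphatases Alpl and Phospho1, the sphingomyelinase Smpd3, and the annexins Anxa2, Anxa5 and Anxa6. They were chosen by gene name among 26140 genes or transcripts named on a rat expression array, with no measured value in the rule. Earlier results of these data were known when they were chosen. They were read from 7 probes, each printed as 2 spots. Total RNA from ROS17/2.8 cells, a cloned line from a rat osteosarcoma that keeps osteoblast features, was labelled with Cy3 and hybridised to 3 one-colour Agilent arrays. Confluent cells were kept in medium with ascorbate phosphate and 1 mM beta-glycerophosphate, which all groups shared. They received polyphosphate, a chain of linked phosphate units, at 1 mg/ml (high dose) or 0.01 mg/ml (low dose) for 24 h, or none (control, with no time given in the labels). Each group is 1 array, so no difference has a replicate check and none has a p-value. In bulk RNA of this kind, a lower share of cells with a transcript and less of it per cell cannot be told apart.

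Matrix vesicles are small particles that osteoblasts and chondrocytes shed into the matrix and in which the first mineral crystals form. Phosphate for the crystals is released inside by PHOSPHO1, which cleaves phosphocholine and phosphoethanolamine, and on the outer surface by tissue-nonspecific alkaline phosphatase, the product of Alpl, which also removes the mineral inhibitor pyrophosphate. Smpd3 encodes neutral sphingomyelinase 2, which splits sphingomyelin into ceramide and phosphocholine, and annexins bind calcium and acidic membrane lipids and are abundant vesicle proteins.

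Which part of a transcript a probe reads matters most for Smpd3, the one member with a pair of probes, so these sequences are shown with those of Phospho1 and Anxa5. The first line is a 30-base stretch of the Smpd3 probe that gave signal (probe on chromosome 19 at 36112166 to 36112225, minus strand, rn4), with capitals on AATAAA, the usual polyadenylation signal of a transcript's end. The second line is the other Smpd3 probe, which lies 3011 bases away (36115237 to 36115296) at higher coordinates and was not well above background on any array.
Smpd3, probe with AATAAA: gaatgaggagaaAATAAAactgtgaggctc
Smpd3, other probe: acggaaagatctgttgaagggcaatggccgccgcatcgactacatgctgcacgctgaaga
Phospho1 probe: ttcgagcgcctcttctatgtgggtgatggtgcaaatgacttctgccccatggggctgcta
Anxa5 probe: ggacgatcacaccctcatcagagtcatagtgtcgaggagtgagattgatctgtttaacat
The other Smpd3, the Phospho1 and the Anxa5 probes each hold a reading frame with no stop codon and lack that signal. AATAAA was present in 3 member probes, those of Alpl and Anxa2 and the first Smpd3 probe. The Alpl and Anxa2 probes also hold a frame with no stop codon. An open frame over 60 bases thus does not tell which part of a transcript a probe reads. In rn4 coordinates the Phospho1 probe lies on chromosome 10 at 84541706 to 84541765 (plus strand) and the Anxa5 probe on chromosome 2 at 122950184 to 122950243 (minus strand). The Alpl probe lies on chromosome 5 at 156501741 to 156501800 (minus strand), the Anxa2 probe on chromosome 8 at 73933982 to 73934041 (plus strand), and the Anxa6 probe on chromosome 10 at 40384319 to 40384378 (minus strand). Exon and UTR annotation of this build was not used here.

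Among the members the sphingomyelinase, both phosphatases and the annexin Anxa6 stood lower on the high dose array than on the control array. The annexins Anxa2 and Anxa5 were within 2 spot errors of no difference. This holds at the scaling reported here, which sets each array by its 75th percentile. The spot error is the standard error of a log2 ratio expected from the scatter between repeat spots of equal brightness. It covers measurement on the array and leaves out culture, labelling and every biological difference. Smpd3 was 1.48-fold and Phospho1 1.37-fold lower at the high dose, and Alpl was 1.10-fold and Anxa6 1.09-fold lower. At the low dose all 6 members were within 2 spot errors of the control at this scaling. Centring the arrays on Agilent's spike-in control probes instead adds 0.15 to every log2 ratio of high dose to control and 0.16 to every ratio of low dose to control. With it Alpl (0.25), Anxa2 (0.23) and Anxa5 (0.12) stood above the control by more than 2 spot errors at the low dose. At the high dose Alpl and Anxa6 then stood at 0.017 and 0.030, no longer below the control. The counts given for related genes hold for the 75th percentile scaling.

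Phospho1, the phosphatase that works inside the vesicle, had control spots of 160 and 158 processed signal units. The low dose spots read 187 and 153, and the high dose spots 114 and 121. Both high dose spots thus lay below all spots of the other arrays, and the low dose pair straddled the control pair. After each array was divided by the 75th percentile of its own signals (926 for control, 964 for low dose and 937 for high dose), the log2 ratio of high dose to control was -0.45 ± 0.13 (spot error). Taken position by position, the spots gave -0.51 and -0.40. The low dose stood at 0.03 ± 0.12 against control, and the high dose at -0.48 ± 0.13 against the low dose, from single-position ratios of -0.67 and -0.30.

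Alpl, whose enzyme sits on the outer membrane through a GPI anchor, read 2931 and 2994 on the control array, 3303 and 3267 at the low dose and 2713 and 2753 at the high dose. The arrays were ordered low dose, control, high dose, with no overlap between the spots of any pair of arrays. The log2 ratio was -0.13 ± 0.06 for high dose against control and 0.09 ± 0.06 for low dose against control. The widest gap was between the doses, at -0.22 ± 0.06, a fold of 1.17 lower at the high dose. This gap between doses kept its sign under all 10 processing alternatives (-0.24 to -0.21). Most of them could not have turned it. The settings for outlier spots, filters and averaging left it unchanged by construction, as Alpl has a single probe. Spike-in and median centring shift every ratio between the doses by only -0.013 and -0.0081. With normexp, another background correction, the gap was -0.23 ± 0.15 and so within 2 spot errors. The gap from control did not keep its sign, since with spike-in centring it was 0.017.

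Smpd3 was the member furthest from 0. Its probe that holds AATAAA read 191 and 204 on the control array, 181 and 232 at the low dose, and 139 and 130 at the high dose. The high dose spots lay below every spot of the other arrays, and the low dose spots lay on either side of the control spots. The log2 ratio was -0.57 ± 0.12 for high dose against control and -0.56 ± 0.12 against low dose. For low dose against control it was -0.0042 ± 0.11, with the positions at -0.13 and 0.13. The other probe read 17.9 and 13.9 on the control array, 5.64 and 28.0 at the low dose, and 15.5 and 6.29 at the high dose. These readings were not well above background and differed as much within an array as between arrays, so the Smpd3 value rests on a single probe.

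**Figure D1:**
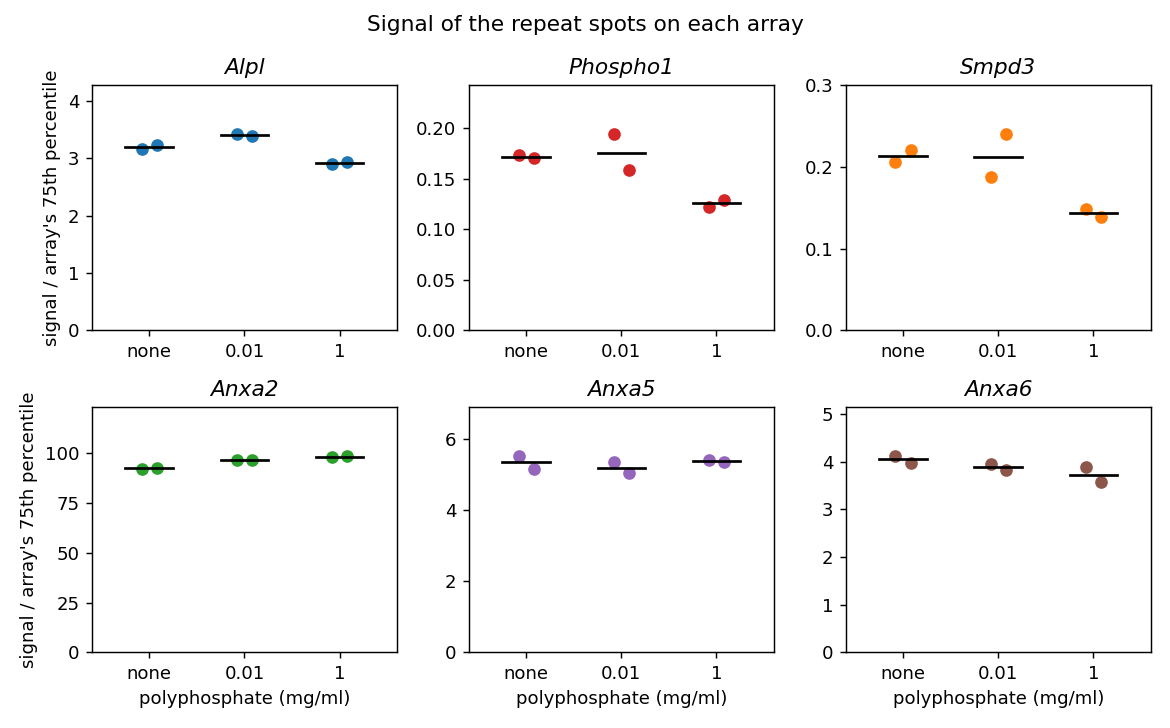
Signal of each repeat spot (points) divided by the array's 75th percentile, with the mean on the log scale (bar), for cells with no polyphosphate, 0.01 mg/ml or 1 mg/ml, on linear axes from 0 that differ between panels; the dim second Smpd3 probe is left out. High dose spots of Phospho1, Smpd3 and Alpl lie below all spots of both other arrays, whereas the Anxa5 spots of high dose and control overlap.

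At the high dose the annexins lay closer to 0 than the enzymes, though Anxa6 (-0.12) was near Alpl (-0.13). Anxa2 encodes annexin A2, which links membranes to the actin cytoskeleton in a complex with S100A10. Its spots gave 85369 and 86003 units in the control, 92989 and 93374 at the low dose and 91857 and 92419 at the high dose. After scaling, the log2 ratio was 0.09 ± 0.05 for high dose and 0.06 ± 0.05 for low dose against control, and 0.03 ± 0.05 between the doses. With spike-in centring the ratios to control were 0.24 ± 0.05 for high and 0.23 ± 0.05 for low dose, both more than 2 spot errors above 0. The repeat spots agreed closely, giving 0.09 at both positions for high dose against control, and no Anxa2 spot was marked as saturated.

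Anxa5, the calcium-dependent phosphatidylserine binder used as a label of dying cells, read 5107 and 4779 on the control array, 5150 and 4849 at the low dose and 5059 and 5008 at the high dose. The log2 ratio of high dose to control was 0.011 ± 0.06, and the high dose spots fell between the control spots. The spot error allows a fold between 0.934 and 1.09 (95% interval), which does not cover culture, labelling or the choice of scaling. With spike-in centring the ratio was 0.16 ± 0.06, outside that interval. Against control the low dose stood at -0.04 ± 0.06, and against the low dose the high dose stood at 0.05 ± 0.06.

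Anxa6, a larger annexin with a doubled core, read 3816 and 3683 on the control array, 3801 and 3680 at the low dose and 3643 and 3344 at the high dose. The high dose spots lay below both control spots after scaling. The log2 ratio was -0.12 ± 0.06 for high dose and -0.06 ± 0.06 for low dose against control. Between the doses the log2 ratio of Anxa6 was -0.06 ± 0.06, with overlapping spots. Like that of Alpl, the high dose ratio of Anxa6 to control turned sign with spike-in centring, to 0.030.

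**Figure D2:**
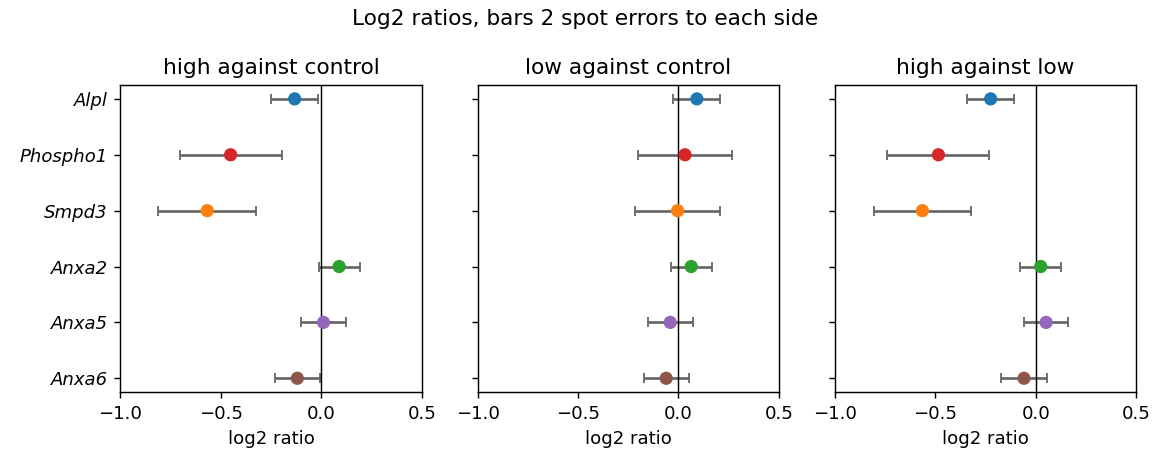
Log2 ratio of each member in the 3 comparisons (points), with bars of 2 spot errors to each side; 1 array per group. In high against control the bars of Smpd3, Phospho1, Alpl and Anxa6 lie below 0, in low against control every bar crosses 0 at the 75th percentile scaling, and in high against low the bars of Smpd3, Phospho1 and Alpl lie below 0.

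Against the whole array, the 2-fold criterion separates no member: 0 of 6 were 2-fold apart in high dose against control, where 0.117% of 14503 measured genes were. The share of genes 2-fold apart was 0.116% for low dose against control and 0.0759% for high against low, again with 0 of 6 members. A smaller criterion of 0.32 log2 units was met by 2 of 6 members, Phospho1 and Smpd3, as lower at the high dose than in the control, where 5.08% of genes were that much lower. The same pair were lower by this criterion in high against low, where 3.82% of genes were. Phospho1 missed this criterion against control with spike-in centring (-0.30) and in both comparisons with normexp (-0.29 each), which left 1 of 6, Smpd3. None of the members was higher by it in either comparison, against 4.82% and 4.59% of genes. In low against control 0 of 6 were higher or lower, against 2.51% and 3.25% of genes.

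By the spot error, 4 of 6 members were lower by more than 2 spot errors in high dose against control, a state shared by 12.8% of measured genes, and none was higher, against 10.7% of genes. The count of 4 depends on the scaling and background correction. Phospho1 and Smpd3 were lower under all 10 alternatives, of which those for outlier spots, filters and averaging left the Phospho1 ratio unchanged by construction. Anxa6 dropped out with median centring and quantile normalization, which left 3, and Alpl and Anxa6 with spike-in centring, normexp and the deposited table, which left 2. With spike-in centring Anxa2 and Anxa5 were higher instead, and with the deposited table Anxa2 was. Spike-in centring adds 0.15 to the high dose to control ratio of every gene, and the deposited table also shifts every gene alike. The shares of all genes in this and the preceding paragraph hold for the reported scaling. They were not counted under the alternatives, so the member counts there have no share to be judged against. In high against low 3 of 6 were lower, or 2 with normexp, against 10.6% of genes, and none higher, against 9.62%. In low against control none was higher or lower, against 4.27% and 4.56% of genes. With spike-in centring 3 of 6 were higher, but that centring raises every gene alike in this comparison. Of the osteoblast markers 7 of 10 were then higher too, and the share of all genes was not counted. The repeat spots of the high dose lay below both control spots for 4 of 6 members, where 28.6% of probes with a pair of spots did so, and above them for Anxa2 alone, against 25.2%. In high against low they lay below both low dose spots for 3 of 6 members, where 27% of such probes did, and above them for Anxa2 and Anxa5, against 23.6%. In low against control they lay above for Alpl and Anxa2, against 18.9%, and below for Anxa6, against 18.8%. These comparisons share arrays, so high against control and high against low are not separate evidence of the low readings on the high dose array.

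Spread around 0 grows at low signal, and Phospho1 and Smpd3 lay in that range. Of the 1815 genes within 0.5 log2 units of the Smpd3 level, 0.826% had a ratio of high dose to control as far from 0, in either direction. For Phospho1 the share was 3.74% of 1820 genes. It was 27.2% of 1219 for Alpl, 31.0% of 1137 for Anxa6, 20.6% of 257 for Anxa2 and 93.4% of 1009 for Anxa5. In high against low the share was 0.386% for Smpd3, 1.65% for Phospho1 and 5.25% for Alpl, but 56.1% for Anxa6, 61.5% for Anxa2 and 61.0% for Anxa5.

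**Figure D3:**
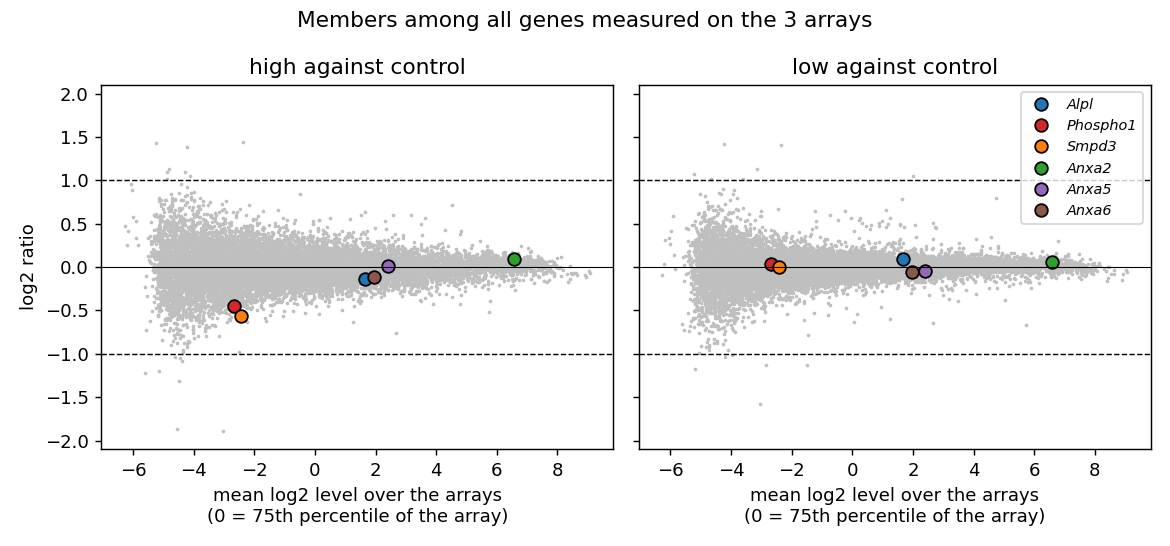
Log2 ratio against the mean log2 level over the arrays for every gene measured on all arrays (grey points), with the members in colour; dashed lines mark 2-fold. At the high dose Phospho1 and Smpd3 sit at the lower edge of the grey cloud at their level and the annexins sit inside it, and at the low dose all members lie near 0 at the 75th percentile scaling.

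Over the 6 members the median log2 ratio was -0.13 for high dose against control, 0.014 for low dose against control and -0.14 for high against low. Over all measured genes it was -0.0087, 0.00095 and -0.0086 in that order. The 3 enzymes had medians of -0.45, 0.03 and -0.48, and the 3 annexins 0.011, -0.04 and 0.03.

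The other annexins on the array did not stand below 0 as a group. Of 9, 6 were measured at the high dose and the control, with a median of 0.02, and 1 was higher by more than 2 spot errors and none lower. That gene was Anxa4, at 0.20 ± 0.06, and Anxa11 stood at 0.10 ± 0.05. The lowest were Anxa9 at -0.07 ± 0.26 and Anxa8 at -0.02 ± 0.02. All 4 S100 partners of annexins were above 0, with a median of 0.06. Among them S100a10, the partner of annexin A2, stood at 0.07 ± 0.05 and S100a6 at 0.12 ± 0.05.

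Genes of sphingomyelin and ceramide metabolism went both ways at the high dose. Of 21 listed, 17 were measured, with a median of -0.0098, and 1 was higher and 3 lower by more than 2 spot errors. The lowest was Smpd2, another neutral sphingomyelinase gene, at -0.51 ± 0.22, from mean signals of 62.5 in the control and 44.1 at the high dose. Smpd1, the acid sphingomyelinase gene, stood at -0.14 ± 0.05, Degs1, which completes ceramide synthesis, at -0.14 ± 0.05, and Cers1, within 2 spot errors of 0, at -0.14 ± 0.07. The highest were the acid ceramidase gene Asah1, at 0.38 ± 0.08, and the sphingomyelin synthase gene Sgms1, at 0.13 ± 0.09. At the low dose Smpd2 stood at -0.18 ± 0.22 and Asah1 at 0.05 ± 0.08.

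Of 19 genes of choline and phosphocholine metabolism, 18 were measured, with a median of -0.03. The list mixes genes that supply phosphocholine, a substrate of PHOSPHO1, with genes that use it and genes of the ethanolamine route. Its median is therefore not a measure of supply. Of the measured genes 1 was higher and 3 lower by more than 2 spot errors. Gpcpd1, a glycerophosphocholine phosphodiesterase gene, stood highest at 0.39 ± 0.14, with 0.51 ± 0.14 against the low dose. The choline transporter gene Slc44a1 followed at 0.37 ± 0.26 and was dim, with 22.7 signal units in the control for its brighter probe. The lowest were Pcyt1b at -0.30 ± 0.26 and Gdpd1 at -0.22 ± 0.26, both dim, and the ethanolamine kinase gene Etnk1 stood at -0.21 ± 0.06. Phospho2, the close relative of Phospho1, had ratios to control of -0.0071 ± 0.20 for the high and -0.38 ± 0.22 for the low dose.

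Of 10 genes of pyrophosphate and phosphate supply, 9 were measured, and their median at the high dose was 0.02, with 3 higher and 2 lower by more than 2 spot errors. Enpp3 and Enpp1, which encode ectonucleotide pyrophosphatases, stood at 0.19 ± 0.03 and 0.18 ± 0.03, while Alpl, whose enzyme degrades the pyrophosphate that ENPP1 makes, stood at -0.13 ± 0.06. The phosphate transporter genes Xpr1 and Slc20a2 were the lowest, at -0.31 ± 0.12 and -0.22 ± 0.08. Slc20a1, another phosphate transporter gene, was among the higher ones, at 0.16 ± 0.06. Ankh was within 2 spot errors of 0, at -0.02 ± 0.08. With spike-in centring, which adds 0.15 to every log2 ratio of high dose to control, Enpp1 and Enpp3 would be further above 0 and Alpl at 0.017.

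Genes of GPI anchor assembly and of zinc transport, listed for their link to the alkaline phosphatase protein, did not move as one. Of 27 genes of GPI anchor assembly, Piga, Pigf and Pigy had no probe under these names, and 22 genes were measured. Their median was -0.02, with 3 higher and 6 lower by more than 2 spot errors. The lowest were Pign at -0.45 ± 0.36 and Pigq at -0.33 ± 0.07, and the highest Pigl at 0.21 ± 0.09 and Pigh at 0.19 ± 0.14. Of 6 zinc transporter genes, all measured, none was higher and 1 was lower, with a median of -0.0023. That gene, Slc39a13, stood at -0.11 ± 0.06, followed by Slc30a5 at -0.11 ± 0.12, and the highest were Slc39a14 at 0.12 ± 0.14 and Slc30a4 at 0.05 ± 0.07. Of 4 other alkaline phosphatase genes 1 was measured, the intestinal Alpi, at 0.15 ± 0.15. Alpp and Alpg had no probe under these names, and Alppl2 was not well above background on any array.

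Among 9 genes of the mineralizing matrix and its inhibitors, 7 were measured, and their median at the high dose was 0.03, with 2 higher and 1 lower by more than 2 spot errors. The higher were Mgp, encoding the calcification inhibitor matrix Gla protein, at 0.32 ± 0.15, and Spp1, encoding osteopontin, at 0.26 ± 0.02. The lower was Sparc, encoding osteonectin, at -0.17 ± 0.05, and Ibsp stood at -0.02 ± 0.06.

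**Figure D4:**
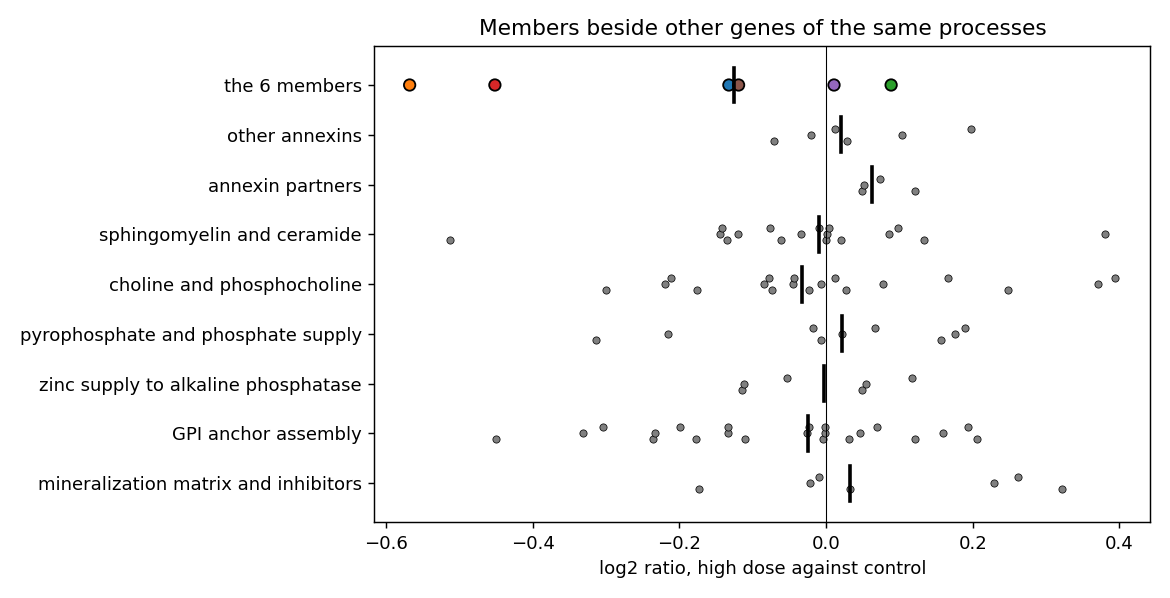
Log2 ratio of high dose to control for the members (colours: Alpl blue, Phospho1 red, Smpd3 orange, Anxa2 green, Anxa5 purple, Anxa6 brown) and for measured genes of 8 lists of related genes (grey), with the median of each row as a bar; the list of other alkaline phosphatases, with 1 measured gene, is left out. Smpd3 lies to the left of all listed genes, and each list spans 0 except the annexin partners.

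The arrays carried osteoblast transcripts throughout: all 10 osteoblast markers were well above background on all 3 arrays. At the high dose their median log2 ratio to control was -0.11, with 1 higher and 3 lower by more than 2 spot errors, with Spp1 the higher one. The lower ones were Col1a1 (-0.23 ± 0.05), Sparc and Dlx5 (-0.14 ± 0.05), while Bglap, encoding osteocalcin, stood at 0.23 ± 0.24. With spike-in centring the median was 0.039, with 2 higher and 0 lower, and Col1a1, Sparc and Dlx5 stood at -0.08, -0.02 and 0.011. With normexp 0 were lower. Of the markers of other cell types, well above background on all arrays were 2 of 6 for chondrocytes, 1 of 5 for adipocytes, 4 of 5 for muscle, 3 of 6 for macrophages and osteoclasts, and 2 of 4 for endothelium. Those above background were Comp and Sox9 for chondrocytes, Fabp4 for adipocytes, and Myog, Ckm, Acta1 and Myh3 for muscle. For macrophages and osteoclasts they were Acp5, Csf1r and Cd68, and for endothelium Pecam1 and Cdh5. Col2a1, Adipoq, Myod1, Ptprc and Kdr were among the markers not well above background on any array. The muscle gene Ckm read 1883, 1862 and 1768 units on the control, low and high dose arrays, and the brighter Sox9 probe 258, 359 and 241. The endothelial Pecam1 stood at 0.42 ± 0.15 and Cdh5 at 0.04 ± 0.14 for high dose against control. Of 30367 probes, between 16982 (high dose) and 17377 (control) were well above background. The part of these differences in the member ratios was not tested. The arrays shared a slide, and where an array lay on it cannot be told apart from its treatment.

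Genes with a like pattern were sought for the furthest members by the distance between their ratios to control at both doses, among 5082 named genes at or above the median level. Phospho1 and Smpd3 themselves lie below that level, at the 27.4 and 30.6 percentiles of measured genes. Genes as dim as these members were thus not searched. Nearest to Phospho1 were Sdc3, which encodes a cell-surface heparan sulfate proteoglycan, at a distance of 0.037 log2 units (its own ratios to control were -0.42 for high and 0.011 for low dose), Znrf4 at 0.050 and Creb3l1 at 0.069. Nearest to Smpd3 were Cybrd1 at 0.13, Sdc3 at 0.15 and Znrf4 at 0.16. Each pattern has only a pair of ratios from 3 arrays.

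Since both phosphatase genes stood lower at the high dose than at the low dose, their promoters are shown beside that of Anxa2, which did not. Each covers 250 bases before to 50 after the transcript start as annotated by RefSeq on GRCr8, in the gene's direction. Promoters of 4 of the 6 members were in the RefSeq table used. Capitals mark the letters of any of 5 motifs on either strand. These were the GC box GGGCGG, the AP-1 site TGACTCA, the TATA box TATAAA, the hypoxia response core ACGTG, and the E-box CACGTG, whose letters include that core on both strands.
Phospho1, chr10:81258560-81258859, plus strand: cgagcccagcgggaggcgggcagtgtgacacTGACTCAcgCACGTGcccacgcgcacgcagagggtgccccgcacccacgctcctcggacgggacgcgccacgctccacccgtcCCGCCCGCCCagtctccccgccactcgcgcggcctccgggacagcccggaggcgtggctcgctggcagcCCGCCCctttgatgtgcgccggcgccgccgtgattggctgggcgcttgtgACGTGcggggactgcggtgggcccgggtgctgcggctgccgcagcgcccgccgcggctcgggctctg
Alpl, chr5:155289736-155290035, minus strand: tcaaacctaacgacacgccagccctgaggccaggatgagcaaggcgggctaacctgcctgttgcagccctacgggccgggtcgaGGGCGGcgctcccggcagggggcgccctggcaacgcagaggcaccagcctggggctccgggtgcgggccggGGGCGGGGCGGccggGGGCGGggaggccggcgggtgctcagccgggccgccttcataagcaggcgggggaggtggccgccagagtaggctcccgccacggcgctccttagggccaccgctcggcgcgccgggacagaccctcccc
Anxa2, chr8:78986002-78986301, plus strand: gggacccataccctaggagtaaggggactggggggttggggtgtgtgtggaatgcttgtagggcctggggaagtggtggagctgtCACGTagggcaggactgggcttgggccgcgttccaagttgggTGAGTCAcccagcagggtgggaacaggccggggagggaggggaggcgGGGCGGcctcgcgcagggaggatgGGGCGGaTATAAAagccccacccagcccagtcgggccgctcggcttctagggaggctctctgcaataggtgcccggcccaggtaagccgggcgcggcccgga
GC boxes were matched 3 times in Phospho1, 4 times in Alpl and 2 times in Anxa2, and 33.1% of 33469 promoters of this length hold one. The E-box was matched in Phospho1 alone of these, and in 6.42% of all promoters. ACGTG was matched 3 times in Phospho1, 2 of them within the E-box, and once in Anxa2, and is in 19.3% of all promoters. Phospho1 and Anxa2 each held 1 AP-1 site, found in 4.63% of promoters, and Anxa2 alone held a TATA box, found in 14.2%. The GC content was 77.3% for Phospho1, 76.3% for Alpl and 68.0% for Anxa2, against a median of 51.7%. The motif matches describe the letters only.

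The lower readings of Phospho1 and Smpd3 on the high dose array kept their direction under the processing alternatives tried. The Phospho1 ratio of high dose to control was below 0 under all 10 alternatives (-0.46 to -0.29), as was that of Smpd3 (-0.63 to -0.37). Most of these settings were no check. Those for outlier spots, filters and averaging could not change Phospho1, and changed Smpd3 only where its dim probe entered without the filter. Median centring, spike-in centring and the deposited table shift every gene alike. Quantile normalization and normexp alone recompute the ratio. The smallest gaps for both came with normexp, which adds an offset of 50 to every spot. Spike-in centring moved them to -0.30 and -0.42.

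**Figure D5:**
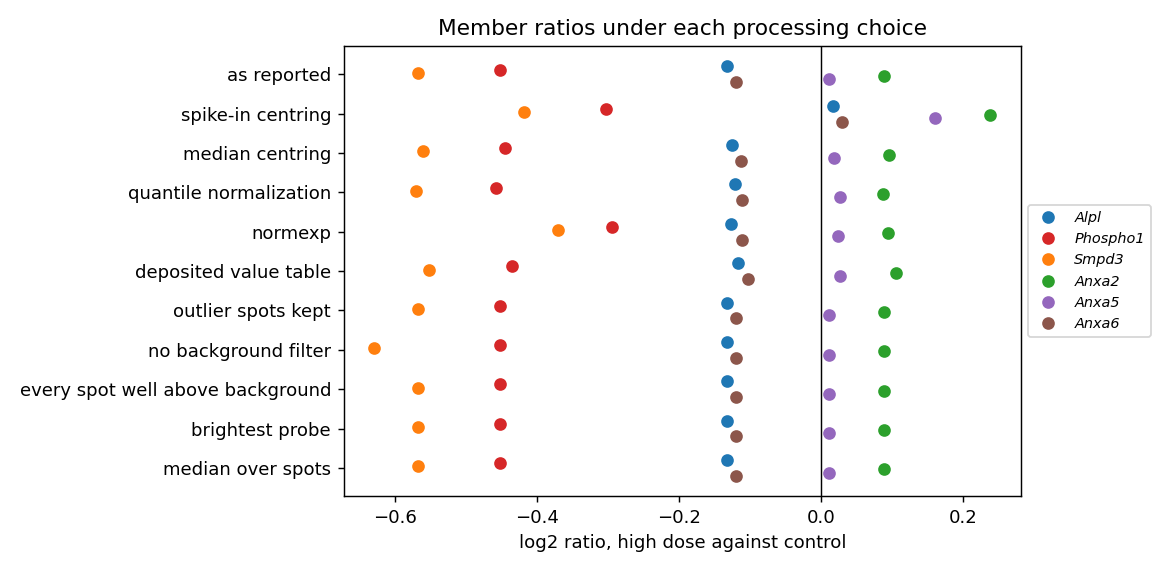
Log2 ratio of high dose to control for each member as reported and under 10 alternative processing choices. Smpd3 and Phospho1 stay left of 0 in every row, and Alpl and Anxa6 cross to 0.017 and 0.030 with spike-in centring. The rows for outlier spots, filters and averaging could move no member but Smpd3.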

How the data were processed

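The deposited scanner files hold an intensity per spot, extracted with Agilent Feature Extraction 10.7.3.1 per the file headers. The processed signal was background-subtracted and detrended within each array, per the file headers, but not scaled between arrays. The other columns used are 0 or 1 flags that the authors deposited with the spots. The authors also deposited a table of ratio values. Checked against the scanner files, each of its columns was the processed signal divided by 1 constant (823, 849 and 823 for control, low and high dose). No source used here says how it was made.

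For each of 58717 non-control spots, the processed signal was divided by the 75th percentile of its array and taken to log2. Outlier spots were left out; no member spot was flagged as an outlier or saturated. A probe counted as measured where at least 50% of its spots were well above background on both arrays, and a gene was the mean over its measured probes. Symbols followed RefSeq accessions for 18438 of 30367 probes and the files' names otherwise; members were matched by the files' names. The spot error came from repeat spots well above background, pooled in 20 bins of level (SD 0.05 to 0.26 log2). With 1 array per group the arrays' number limits precision, and no test was made. The calculation was tested on simulated data with known changes, the same spot scatter and no difference of array or culture. This checks the arithmetic only and cannot speak to the design of 1 array per group. Named genes were all members and, of each related list, up to 2 furthest from 0 each way at the high dose, with some others chosen after their values were seen. The members and lists were chosen with earlier results of these data known. Alternatives covered scaling, background correction with limma 3.58.1, filters, spot and probe averaging, and the deposited table. Software was Python 3.11.15 and R 4.3.3.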

Additional observations from a re-analysis of the deposited data

How the results depend on the processing

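The 10 alternatives covered scaling, background correction, filters, averaging and the deposited table. Those for outlier spots, filters and averaging could move no member but Smpd3, since the others have a single probe and no flagged spot. Centring on spike-in probes added 0.15 to every log2 ratio of high dose to control and 0.16 to every ratio of low dose to control. It turned the members' median for high against control from -0.13 to 0.024, Alpl to 0.017 and Anxa6 to 0.030, and moved the median for low against control from 0.014 to 0.18; for high against low it shifted values by -0.013. The number of genes 2-fold apart, 17, 17 and 11 for high against control, low against control and high against low, became 2, 3 and 1 with normexp, 838, 781 and 673 without a background filter, and 9, 11 and 7 with every spot well above background. The other alternatives kept the members' medians within 0.058 of the reported values, the median spot error over the members, and these counts within 1.5 times. The median for low against control, near 0, was -0.0040 with normexp and -0.0043 without a background filter. Without the background filter, the second, dim Smpd3 probe moved Smpd3 from -0.57 to -0.63 for high against control and from -0.0042 to -0.20 for low against control. No paired analysis was possible because each group holds 1 array.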
